A study of Mus musculus with 20 samples.

Results

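Mouse hypothalamus holds 455 genomic intervals whose methylation signal in non-neuronal nuclei fell to 0.5 or less of its birth level by postnatal day 21. In neuronal nuclei the signal of these intervals at day 21 was between 0.67 and 1.5 times that at birth. They are 455 of the 27259 intervals that held at least 10 reads in at least 5 libraries, out of 50782 intervals listed. Each library's counts were divided by its median count over the 15147 intervals with at least 20 reads in every library, so that a normalised count of 1 is the median of these well-read intervals. An interval is a member if the ratio of its P21 to its P0 group mean was at most 0.5 in non-neurons and between 0.67 and 1.5 in neurons. The members were thus chosen by their normalised counts at both ages in both cell types, and their age changes in both cell types are given below as descriptions. Where calls among members are counted from the main edgeR fit, the count stands beside that of all intervals. No count of calls among members is a test of them.

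The 4 groups were P21 non-neurons, P0 non-neurons, P21 neurons and P0 neurons, where P0 is the day of birth and P21 is postnatal day 21. Every sample came from male C57BL/6 mice with no treatment or genetic change named in the labels, and each pooled 2 hypothalami. Nuclei were sorted by fluorescence for NeuN, a nuclear protein of neurons, and each group has 5 independent samples. Non-neurons are the nuclei without NeuN, a mixture of glia and other cells, so that a change of methylation within one cell type and a change in the mix of cell types cannot be told apart. Libraries held 5663740 to 9998110 reads. At P0, replicates 4 and 5 stood apart from replicates 1 to 3 in both cell types, although the labels name no batch. The deviations of P0 neurons and P0 non-neurons from their group means correlated at 0.129 to 0.215 between replicates 4 and 5, at 0.022 to 0.153 between replicates 1 to 3, and at -0.230 to -0.060 across these sets. Without replicates 4 and 5 of P0, 519 intervals met the rule, 357 of them among the 455.

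DNA methylation is the addition of a methyl group to cytosine, mostly at CpG dinucleotides, and it is copied when cells divide. In the postnatal brain, glial precursors go on dividing and maturing into oligodendrocytes and astrocytes, whereas most neurons have already stopped dividing, and both gain and loss of methylation accompany maturation. In methylation-specific amplification, the enzyme SmaI first cuts unmethylated CCCGGG sites to blunt ends, and XmaI then cuts the methylated CCCGGG sites to ends that take up an adaptor. An interval is amplified where both of its flanking sites are methylated, so fewer reads stand for less methylation at one or both of these 2 sites, on a relative scale. Intervals are given by their mm9 coordinates. A genome or annotation of that build was not used here, so no gene is assigned and no sequence is shown.

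Members held a smaller share of the reads in P21 than in P0 non-neurons, as the rule requires, and the share in P21 non-neurons was also below that in both neuronal groups. They took 0.634% to 0.682% of all reads in the 5 libraries of P21 non-neurons, against 1.28% to 1.40% in P0 non-neurons. In neurons they took 1.87% to 1.99% of the reads at P21, against 1.75% to 1.81% at P0. The median normalised count over members was 0.127 to 0.151 per library in P21 non-neurons, against 0.301 to 0.347 in P0 non-neurons. It was 0.321 to 0.354 in P21 neurons, against 0.354 to 0.410 in P0 neurons. No library of P21 non-neurons came near those of another group, and the 5 libraries within each group lay close together. The median ratio of P21 to P0 over members was 0.415 in non-neurons (quartiles 0.350 and 0.465) and 0.856 in neurons (quartiles 0.744 and 1.04). Over all kept intervals these medians were 1.00 and 0.962.

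**Figure D1:**
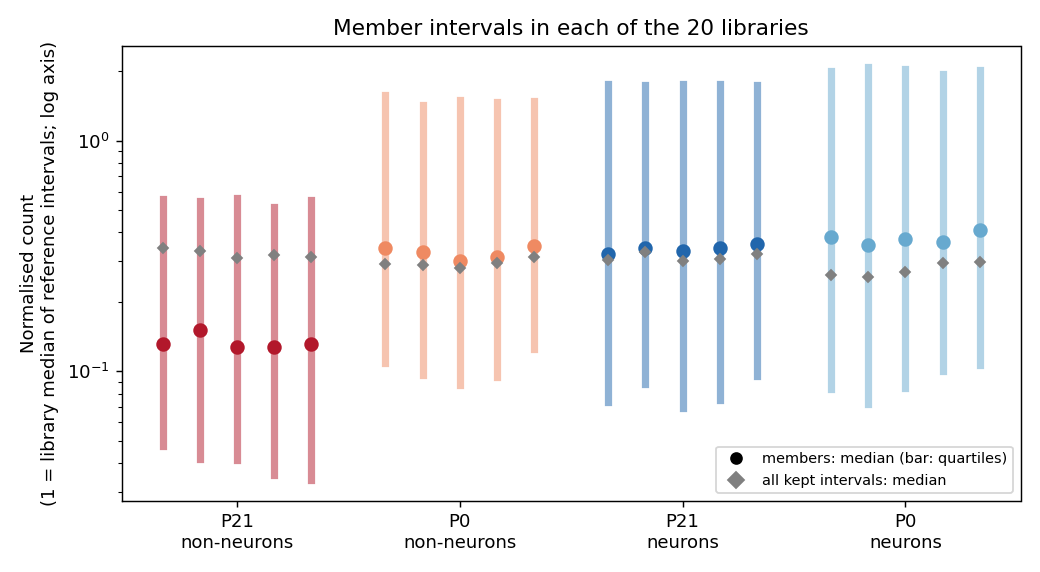
Normalised count (log axis) of the member intervals in each of the 20 libraries: circles are the median over members, bars its quartiles, and grey diamonds the median over all kept intervals. The 5 P21 non-neuron medians, at 0.127 to 0.151, lie below all others (0.301 to 0.410). The grey diamonds lie at 0.311 to 0.342 in P21 and 0.281 to 0.3125 in P0 non-neurons. In neurons they lie at 0.301 to 0.327 at P21 and 0.256 to 0.298 at P0.

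The members with the lowest ratios are shown library by library, numbered by rank among members at or above the median P0 level. The interval chr6:146449480-146450213, the first of them, had normalised counts of 0.147, 0.0677, 0.1005, 0.0761 and 0.0506 in P21 non-neurons, against 0.874, 0.707, 0.592, 0.829 and 0.826 in P0 non-neurons. Its neuronal values were 1.08, 1.10, 1.27, 1.14 and 1.40 at P21, against 1.08, 0.908, 0.731, 1.07 and 1.07 at P0. All 5 P21 non-neuron libraries were far below every other library, on 12 to 28 reads each, and the P21 neurons were the highest group. The second interval, chr8:113885105-113885740, had 0.316, 0.365, 0.279, 0.254 and 0.304 in P21 non-neurons, against 1.84, 2.17, 1.96, 2.09 and 2.39 in P0 non-neurons. In neurons it had 2.09, 2.14, 2.14, 1.93 and 2.09 at P21, against 2.86, 2.96, 2.54, 2.96 and 3.01 at P0. Here the neuronal groups did not overlap either, with P21 below P0, but the P21 neurons lay within the range of P0 non-neurons.

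The third interval, chr2:59482812-59483160, is the shortest of the 8 at 348 bp. It had 0.126, 0.0417, 0.1005, 0.0964 and 0.0844 in P21 non-neurons, against 0.371, 0.467, 0.633, 0.388 and 0.507 in P0 non-neurons. Its P21 and P0 neuron values overlapped, at 0.549 ± 0.057 and 0.732 ± 0.106 (mean ± SD, n = 5 each). The fourth, chr2:127329897-127330707, had the highest level of the 8 in P0 non-neurons. It had 1.42, 1.36, 1.64, 1.02 and 1.35 in P21 non-neurons, against 7.47, 8.38, 6.31, 6.56 and 7.04 in P0 non-neurons. It had 8.93, 9.02, 8.75, 8.47 and 9.28 in P21 neurons, against 12.6, 14.4, 12, 12.1 and 12.2 in P0 neurons. No pair of groups overlapped at this interval. Its right-hand neighbour, chr2:127330707-127332715, shares one of its sites and is also a member, at 0.341 ± 0.070 in P21 and 1.21 ± 0.129 in P0 non-neurons (SD, n = 5 each).

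The other 4 of the 8 kept the same order of groups in non-neurons and differed in neurons. The fifth, chr5:30926349-30927526, averaged 0.452 ± 0.042 in P21 and 2.27 ± 0.265 in P0 non-neurons, and 2.88 ± 0.190 in P21 and 3.76 ± 0.376 in P0 neurons (SD, n = 5 each). The sixth, chr10:79395755-79397425, averaged 0.095 ± 0.021 in P21 and 0.417 ± 0.085 in P0 non-neurons, and 0.878 ± 0.088 in P21 and 0.732 ± 0.016 in P0 neurons. Like the first, it was highest in P21 neurons, which lay above all 5 P0 neuron libraries. The seventh, chr9:56504802-56505947, averaged 0.341 ± 0.037 in P21 and 1.47 ± 0.222 in P0 non-neurons, and 2.02 ± 0.082 in P21 and 2.42 ± 0.217 in P0 neurons. The eighth, chr10:118300208-118301219, averaged 0.632 ± 0.050 in P21 and 2.63 ± 0.336 in P0 non-neurons, and 3.19 ± 0.183 in P21 and 4.16 ± 0.228 in P0 neurons. Ratios this low were rare, since 28 of the 455 members had a ratio of 0.25 or less in non-neurons.

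**Figure D2:**
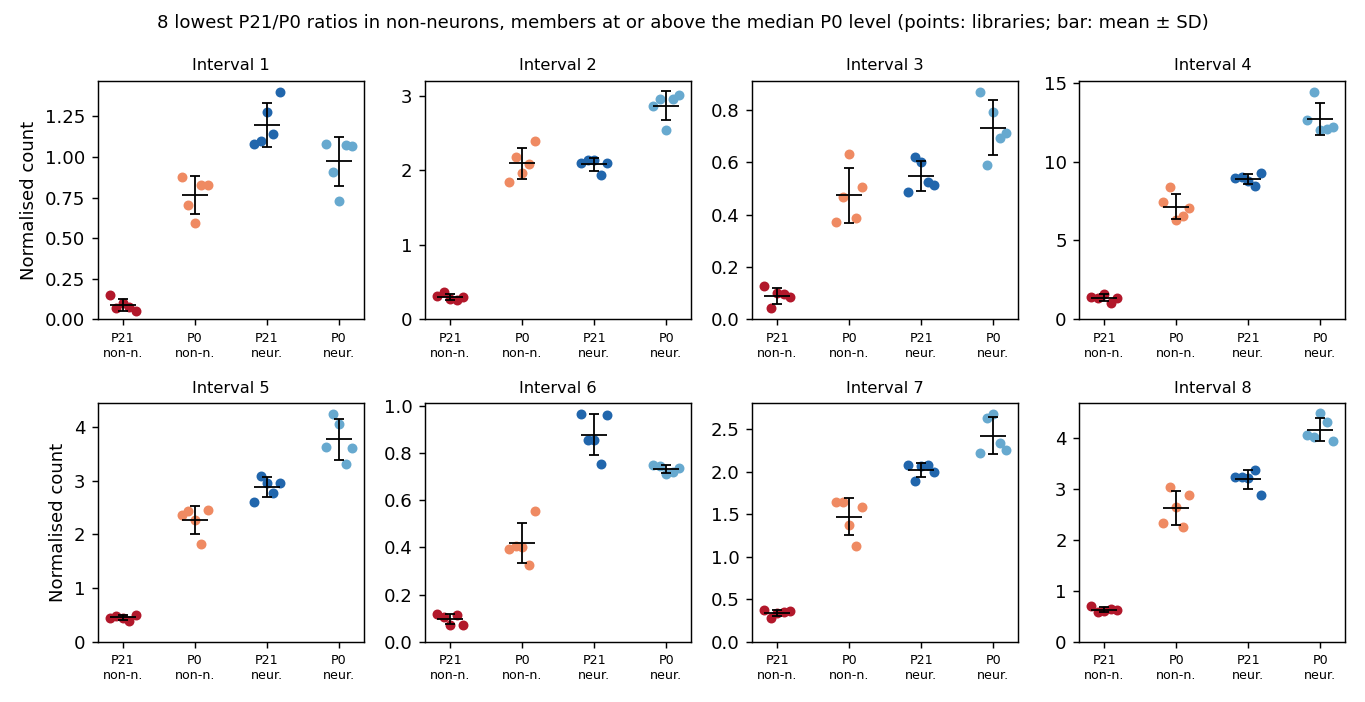
Normalised count of the 8 members with the lowest P21 to P0 ratio in non-neurons among those at or above the median P0 level, one panel each in the order of the text, with points for the 5 libraries of each group and bars for mean ± SD. P21 non-neurons lie below the other groups in all 8 panels, and P21 neurons exceed P0 neurons in intervals 1 and 6.

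The 5 members with the highest level in P0 non-neurons kept a strong signal at P21. The interval chr2:119157831-119158492 had 5.63, 5.55, 6.51, 6.02 and 6.25 in P21 non-neurons, against 10.4, 12.3, 14.2, 13.2 and 12.4 in P0 non-neurons. Its neuronal groups overlapped, at 11.7 ± 1.29 in P21 and 13.5 ± 1.11 in P0 neurons (SD, n = 5 each). The remaining 4 of these, chr7:16529004-16529602, chr14:73577562-73578099, chr11:118962392-118963022 and chr5:114456312-114457153, had non-neuronal ratios of 0.363, 0.451, 0.476 and 0.429. In these 4 the P21 neurons also lay below all P0 neurons, with neuronal ratios of 0.705, 0.701, 0.727 and 0.795, so the neuronal signal was lower at P21 as well, but by less.

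The limits of the rule cut through a continuous range. In 156 members the ratio in non-neurons was 0.45 to 0.5, and 227 further intervals with a neuronal ratio in the band had a ratio above 0.5 and up to 0.55. The intervals named here are those nearest to each limit among intervals at or above the median P0 non-neuron level of members. Over all members the highest ratios were 0.49999 in non-neurons and 1.496 in neurons. Just inside lay chr10:126071393-126072120, chr7:150565675-150566596 and chr7:145595797-145596685 at 0.4999, 0.498 and 0.498. Just outside lay chr4:84951827-84952227, chr1:120746834-120747255 and chr8:124779178-124780087 at 0.501, 0.501 and 0.502. At the lower neuronal limit, chr18:78042343-78043106 and chr16:11344884-11345688 were inside at 0.6701 and 0.6704 and chr7:35971599-35972370 and chr4:135335805-135336385 outside at 0.669. At the upper limit, chr11:53608195-53610472 and chr7:141803155-141803703 were inside at 1.48 and 1.47, and chr8:11458290-11458707 and chr6:121474557-121474833 outside at 1.52 and 1.59. Of these, chr11:53608195-53610472 had 1.30, 1.40, 1.22, 0.569 and 0.522 in P0 neurons, and without replicates 4 and 5 of P0 its neuronal ratio was 1.14. Without these replicates chr10:126071393-126072120 lay outside at 0.5005 in non-neurons and 0.6675 in neurons. So did chr18:78042343-78043106 and chr16:11344884-11345688, at 0.633 and 0.653 in neurons. Conversely, chr8:124779178-124780087 (0.487 in non-neurons), chr7:35971599-35972370 and chr4:135335805-135336385 (0.684 and 0.681 in neurons) lay inside. In all, 2373 kept intervals had a ratio of 0.5 or less in non-neurons. Besides the 455 members, the neuronal ratio was below 0.67 in 1804 of them and above 1.5 in 114.

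Calls among the members were counted from edgeR's quasi-likelihood test, fitted to all 26679 intervals that passed its read filter. The rule limits the ratios in both cell types on these same libraries, so it largely sets these counts and nothing is read from them. Of the 455 members, 438 were tested, and 17 had too few reads, on average 5.75 to 8.05 per library. At an adjusted p under 0.05, 423 of the 438 were lower at P21 in non-neurons, against 25.8% of all tested intervals, and 377 of them by at least 2-fold, against 7.81%. All 5 P21 libraries lay below all 5 P0 libraries of non-neurons at 338 members, against 19% of all tested intervals. In neurons, 65 members were lower at P21, against 26.3% of all tested intervals, and 55 were higher, against 31% of all tested intervals. Together these are 120 members with a neuronal call, against 57.3% of all tested intervals. The remaining 318 had no call in neurons, which does not show that they stayed the same. All 5 P21 neuron libraries lay below all 5 P0 neuron libraries at 81 members, against 23.3% of all tested intervals, and above them at 19, against 18.8%. Scaling moved the direction of these neuronal calls. TMM factors (edgeR's default scaling) put 54.2% of them lower at P21, RLE factors 63.5%, library totals 15.7%, upper-quartile factors 72.4% and the median-count factors of the rule 81.4%. Library totals shifted the median change of all tested intervals in neurons by 0.20 on the log2 scale, and the median-count factors by -0.12.

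The neuronal calls are split here by level. Of the 256 members with a mean below 0.5 in P0 non-neurons, 239 were tested. In P21 neurons 2 of them (0.84%) were lower, against 16.1% of all tested intervals at that level. Another 13 (5.44%) were higher, against 37.3%. All 199 members with a mean of at least 0.5 were tested, and 63 of them were lower and 42 higher in P21 neurons. In this upper level range, 31.7% of members and 41.4% of all tested intervals were lower, and 21.1% of members and 21.6% of all tested intervals were higher in P21 neurons. In the low range 111 members had a mean below 0.1 in P0 non-neurons, and there the replicates scattered widely: the median coefficient of variation over members below 0.5 was 42.6% in P21 and 29.8% in P0 non-neurons. Over members of at least 0.5 it was 13.3% and 10.6%.

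Neurons and non-neurons were also set side by side at each age. These libraries all entered the rule, so the counts are given without a reading. At P0, 153 of the 438 tested members were higher in neurons, against 6.92% of all tested intervals, and 12 were lower, against 2.86%. At P21, 353 were higher in neurons, against 20.8% of all tested intervals, and 0 were lower, against 15%. The count of lower members was also 0 at an unadjusted edgeR p under 0.05, and 0 by DESeq2 and limma-voom at an adjusted p under 0.05. The difference between neurons and non-neurons rose with age at 315, against 10.9%. The median ratio of P0 neurons to P0 non-neurons was 1.22 over the 199 members with a mean of at least 0.5, against 0.965 over all kept intervals in that range. Below that level it was 0.914 over members and 0.917 over all kept intervals.

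In some members neurons were already far above non-neurons at birth. At chr3:104796839-104797566 neurons averaged 6.82 ± 0.600 at P21 and 6.91 ± 0.683 at P0, and non-neurons 0.345 ± 0.135 at P21 and 0.924 ± 0.128 at P0 (SD, n = 5 each). P0 neurons were 7.48-fold above P0 non-neurons there, the highest such ratio among members at or above the median level. At chr3:105697325-105698397 the libraries of P21 non-neurons had 0.0737, 0.208, 0.151, 0.0914 and 0.131, against 0.320, 0.437, 0.418, 0.347 and 0.472 in P0 non-neurons. Its neurons averaged 2.06 ± 0.079 at P21 and 2.00 ± 0.187 at P0, and the 2 ages overlapped. P0 neurons were also well above P0 non-neurons at chr9:44303234-44304150, chr3:78495485-78495892 and chr18:11953255-11954050, by 4.80, 3.82 and 3.65 times. At the last pair of these the P21 neurons lay below all P0 neurons, with neuronal ratios of 0.785 and 0.737.

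At the other end are the 5 lowest ratios of P0 neurons to P0 non-neurons among members at or above the median level. Over all 455 members this ratio had a lowest value of 0.238 and quartiles of 0.836 and 1.42, so values below 1 were common. At chr16:69469810-69470314 P21 non-neurons had 0.316, 0.276, 0.279, 0.289 and 0.291, against 0.577, 0.515, 0.679, 0.653 and 0.528 in P0 non-neurons. Its P21 neurons had 0.333, 0.304, 0.321, 0.317 and 0.317, against 0.405, 0.441, 0.375, 0.244 and 0.360 in P0 neurons. P21 neurons and P21 non-neurons overlapped, whereas at P0 all 5 non-neuron libraries were above all 5 neuron libraries. The interval chr8:127939348-127939797 also overlapped between the cell types at P21, with 0.621 ± 0.062 in P21 and 1.30 ± 0.117 in P0 non-neurons, and 0.632 ± 0.056 in P21 and 0.877 ± 0.083 in P0 neurons (SD, n = 5 each). Without replicates 4 and 5 of P0 its non-neuronal ratio was 0.5007, just above the limit. The ratios of P0 neurons to P0 non-neurons were 0.681, 0.696 and 0.697 at chr11:102634770-102635858, chr10:82280911-82281536 and chr2:31664718-31665161. At these 3 the P21 neurons averaged 0.414, 1.60 and 0.598, against 0.320, 0.979 and 0.234 in P21 non-neurons, without overlap.

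Members lay next to each other in places. Intervals that share a cut site touch, and 67 of the 455 members touched another member, in 29 runs of 2 and 3 runs of 3. On chromosome 1 a chain of 3 touching intervals consisted of members alone. Its first interval, chr1:94870882-94872530, averaged 0.280 ± 0.072 in P21 and 0.576 ± 0.115 in P0 non-neurons, its second, chr1:94872530-94873015, 0.725 ± 0.093 and 1.96 ± 0.221, and the last, chr1:94873015-94875746, 0.183 ± 0.049 and 0.409 ± 0.085 (SD, n = 5 each). In none of the 3 did P21 and P0 non-neurons overlap. Without replicates 4 and 5 of P0, the non-neuronal ratio of the first was 0.511, above the limit. In neurons the first was higher at P21 (0.959 ± 0.124 in P21 and 0.687 ± 0.050 in P0 neurons), whereas the second had 1.77 ± 0.224 in P21 and 2.17 ± 0.286 in P0 neurons.

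In a run on chromosome 7 neurons were well above non-neurons at both ages. Its first interval, chr7:26030206-26031602, averaged 0.256 ± 0.071 in P21 and 0.666 ± 0.066 in P0 non-neurons, and 1.77 ± 0.236 in P21 and 2.05 ± 0.224 in P0 neurons. The next, chr7:26031602-26032252, averaged 0.060 ± 0.023 in P21 and 0.123 ± 0.041 in P0 non-neurons, with overlapping libraries, and 1.39 ± 0.114 in P21 and 1.61 ± 0.228 in P0 neurons. The last of the run, chr7:26032252-26032360, met the rule on 0 to 1 read per library in P21 non-neurons and 0 to 4 reads in P0 non-neurons, too few to show a change. On chromosome 4, chr4:133802823-133803856 averaged 1.10 ± 0.153 in P21 and 2.60 ± 0.305 in P0 non-neurons. The adjoining chr4:133803856-133804583 averaged 3.81 ± 0.580 in P21 and 8.22 ± 0.730 in P0 non-neurons. The last run of 3, on chromosome 9, held chr9:56724794-56727300, chr9:56727300-56728591 and chr9:56728591-56728709, with non-neuronal ratios of 0.343, 0.403 and 0.405 and neuronal ratios of 1.30, 1.09 and 0.868. Without replicates 4 and 5 of P0, the neuronal ratio of chr9:56724794-56727300 was 1.63, outside the band, as was that of chr7:26032252-26032360 at 0.625.

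The reads of touching intervals that are not members did not choose the member beside them. The rule still shaped this set on the same libraries, since touching intervals that met it are members and were left out. Those that are not members share one of the member's 2 sites and add a site of their own. Because of the shared site, the 2 intervals are not independent measures. Of 261 such intervals, 194 were tested, and 99 of them (51.0%) were lower in P21 than in P0 non-neurons, against 25.8% of all tested intervals and 29.9% of those that touch a tested interval, by edgeR's quasi-likelihood test at an adjusted p under 0.05. With a minimum of 2-fold the count was 46, against 7.81% of all tested intervals. Their median log2 fold change in non-neurons was -0.55, against 0.03 over all tested intervals, and 152 of the 194 were below 0. Another 14 (7.22%) were higher in P21 non-neurons, against 28.5% of all tested intervals. In neurons 59 (30.4%) were lower at P21, against 26.3% of all tested intervals, and 61 (31.4%) were higher, against 31%. The neuron minus non-neuron difference rose with age at 75 (38.7%), against 10.9% of all tested intervals, and fell at 4, against 3.24%.

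**Figure D3:**
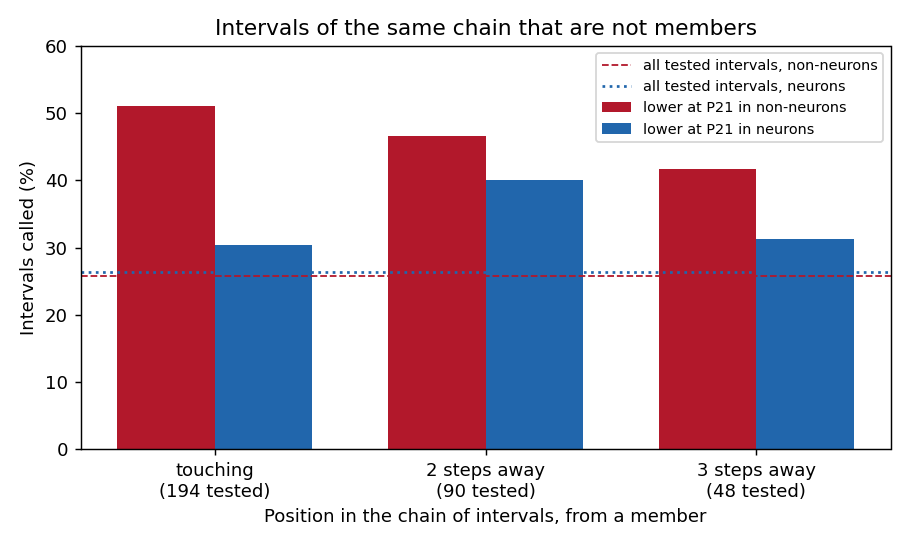
Share of non-member intervals called lower at P21 (edgeR, adjusted p under 0.05) by their position in the chain from a member, red for non-neurons and blue for neurons, with lines for all tested intervals (25.8% and 26.3%). In non-neurons the share is 51.0% among touching intervals, 46.7% at 2 steps and 41.7% at 3 steps (20 of 48), and in neurons 30.4%, 40.0% and 31.3%. Counted from every tested interval instead (not drawn), the shares are 29.9%, 34.0% and 35.4% in non-neurons and 29.9%, 33.5% and 34.9% in neurons.

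At both read levels the share of touching intervals called lower in non-neurons was above that of all tested intervals. Among touching non-members with a mean below 0.5 in P0 non-neurons, 40 of 117 (34.2%) were lower in P21 non-neurons, against 15.1% of all tested intervals at that level. Among those with a mean of at least 0.5, 59 of 77 (76.6%) were lower, against 41.6% of all tested intervals at that level. In neurons the shares were 19.7% against 16.1% at the low level and 46.8% against 41.4% at the high level. Of the 99 touching intervals lower in non-neurons, 53 were also lower in neurons, 23 had no call in neurons and 23 were higher in neurons. The rule partly sets this split, since touching intervals that met its neuronal band and its non-neuronal limit were left out as members.

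Single neighbours show this range. The interval chr6:146450213-146450745, to the right of the first of the 8 members above, had 0.0316, 0.0104, 0, 0 and 0 in P21 non-neurons, against 0.0571, 0.0539, 0.0255, 0.0471 and 0.0764 in P0 non-neurons. Its log2 fold change in non-neurons was -2.58 ± 0.55 (SE), with an adjusted p of 0.000122 by edgeR, on 0 to 6 reads per P21 library. In P21 neurons it had 0.264, 0.310, 0.265, 0.285 and 0.265, against 0.0595, 0.0667, 0.0625, 0.131 and 0.0899 in P0 neurons, a rise of 1.89 ± 0.30 (edgeR adjusted p = 9.68e-07). At this neighbour the 2 cell types moved in opposite directions, and at the member beside it all 5 P21 neuron libraries also lay above all 5 P0 neuron libraries. To the left of the sixth interval, chr10:79393922-79395755 fell in non-neurons by 0.62 ± 0.13 (edgeR adjusted p = 0.000135), with 0.571 ± 0.083 in P21 and 0.895 ± 0.108 in P0 non-neurons. Its neurons had 0.674 ± 0.094 at P21 and 0.798 ± 0.152 at P0, with a log2 fold change of -0.11 (edgeR adjusted p = 0.461), which was -0.59 (edgeR adjusted p = 5.77e-05) once the length trend was removed.

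The chains of the 4 runs above held 6 non-members, looked at after their values were seen. Of these, 4 were tested and called lower in P21 non-neurons. The other 2, chr7:26033920-26034579 and chr7:26034579-26034641, were not tested, and the last of them had no read in any library. Beside the chromosome 9 run, chr9:56728709-56729837 had 0.342, 0.432, 0.420, 0.294 and 0.451 in P21 non-neurons, against 1.75, 2.11, 1.64, 1.61 and 1.76 in P0 non-neurons. It fell by 2.15 ± 0.12 (log2, with SE) at an edgeR adjusted p = 6.55e-18, and the interval missed the rule by its neuronal ratio of 0.643. The next one along, chr9:56729837-56731540, fell by 0.62 ± 0.12 in non-neurons (edgeR adjusted p = 5.56e-05), and its log2 fold change in neurons was -0.09 (edgeR adjusted p = 0.485), or -0.55 (edgeR adjusted p = 2.02e-05) once the length trend was removed. Beside the chromosome 7 run, chr7:26032360-26033920 had 0, 0.00521, 0.00457, 0 and 0 in P21 non-neurons, against 0.0286, 0.0299, 0.0357, 0.0353 and 0.0278 in P0 non-neurons (edgeR adjusted p = 2.77e-05), at most 1 read per P21 non-neuron library. Its neurons had 0.060 ± 0.019 at P21 and 0.106 ± 0.030 at P0, with a log2 fold change of -0.69 (edgeR adjusted p = 0.0617). That neuronal result kept its side of the threshold in 23 of 31 alternatives, and was -1.09 (edgeR adjusted p = 0.00326) once the length trend was removed. Beside the chromosome 4 run, chr4:133801522-133802823 fell in both cell types, to 0.024 ± 0.012 in P21 against 0.146 ± 0.056 in P0 non-neurons and to 0.072 ± 0.028 in P21 against 0.238 ± 0.043 in P0 neurons (edgeR adjusted p = 2.98e-07 in non-neurons and 1.06e-05 in neurons).

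Intervals near a member that share no site with it were counted by distance. Within 2000 bp, centre to centre, 12 of 34 tested intervals (35.3%) were lower in P21 non-neurons and 13 (38.2%) in P21 neurons. Over the 7 classes of distance up to 500000 bp the share in non-neurons lay between 29.6% and 36.1% with no steady order, highest at 20000 to 50000 bp. The neuron minus non-neuron difference rose at 8 of the 34 (23.5%) and at 616 of the 5574 between 100000 and 500000 bp (11.1%), against 10.9% of all tested intervals. In the classes between these the share was 13.0%, 13.8%, 16.2%, 13.2% and 12.9%, in order of distance. For comparison, the same limits with the cell types exchanged gave 563 intervals that fell in neurons only, and 1336 fell to 0.5 or less in both. Among tested non-members touching the neuron-only intervals, 110 of 212 (51.9%) were lower in neurons and 96 (45.3%) in non-neurons. The neuron minus non-neuron difference fell at 32 and rose at 9 of them. Among non-members touching intervals that fell in both cell types, 207 of 469 (44.1%) were lower in non-neurons and 211 (44.99%) in neurons, and the difference rose at 49 and fell at 33. The differences between these shares were not tested.

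Members were not spread evenly over interval length. Of the 455, 114 (25.1%) were 400 to 800 bp long, against 16.8% of all kept intervals, and 89 (19.6%) were 800 to 1200 bp long, against 14.03%. Only 14 members (3.08%) were shorter than 200 bp, against 8.25% of kept intervals, and 31 (6.81%) were 1600 to 2000 bp long, against 11.5%. The change with age of all intervals followed length too. The median log2 fold change of kept intervals of 400 to 800 bp was -0.34 in non-neurons and -0.32 in neurons, and at 1600 to 2000 bp it was 0.42 and 0.53. The rule was applied again after removing the length trend of each library: 554 intervals then met the rule, 281 of them among the 455.

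**Figure D4:**
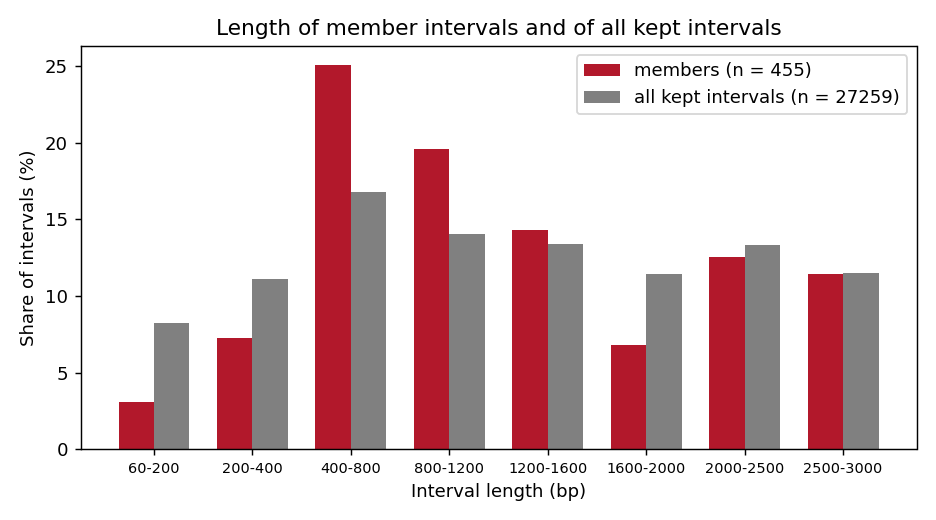
Share of the 455 members (red) and of the 27259 kept intervals (grey) in 8 classes of interval length in base pairs. Members exceed kept intervals most at 400 to 800 bp (25.1% and 16.8%) and fall short of them at 60 to 200 bp (3.08% and 8.25%).

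Fewer members stood alone than intervals in general. No other listed interval touched 182 members (40.0%), against 47.3% of all kept intervals, 42.8% of those falling in neurons only and 38.2% of those falling in both. Chains of 5 or more intervals held 59 members (13.0%), against 7.52% of kept intervals, 8.53% of the neuron-only and 10.48% of the shared ones.

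Every autosome held members, and the X chromosome held almost none. On the autosomes 454 of 26640 kept intervals (1.70%, exact 95% Clopper-Pearson interval 1.55% to 1.87%) were members, from 1.19% on chromosome 3 to 2.16% on chromosome 18. On the X chromosome, of which male cells have a single copy, 1 of 606 (0.165%, interval 0.00418% to 0.916%) was. These intervals cover counting error only and take each genomic interval as independent. That one, chrX:70656307-70656881, had 0.013 ± 0.011 in P21 and 0.039 ± 0.019 in P0 non-neurons (SD, n = 5 each) and too few reads to be tested. Intervals on X were read less deeply, at a median of 28.4 reads per library, against 54.5 to 81.3 on the autosomes, and the part of read depth in the low share was not tested. Of the kept intervals on X, 1.32% fell in neurons only, against 2.08% on autosomes, and 2.31% fell in both cell types, against 4.96%. Of its 577 tested intervals 12.5% were lower in P21 non-neurons and 16.1% in P21 neurons.

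**Figure D5:**
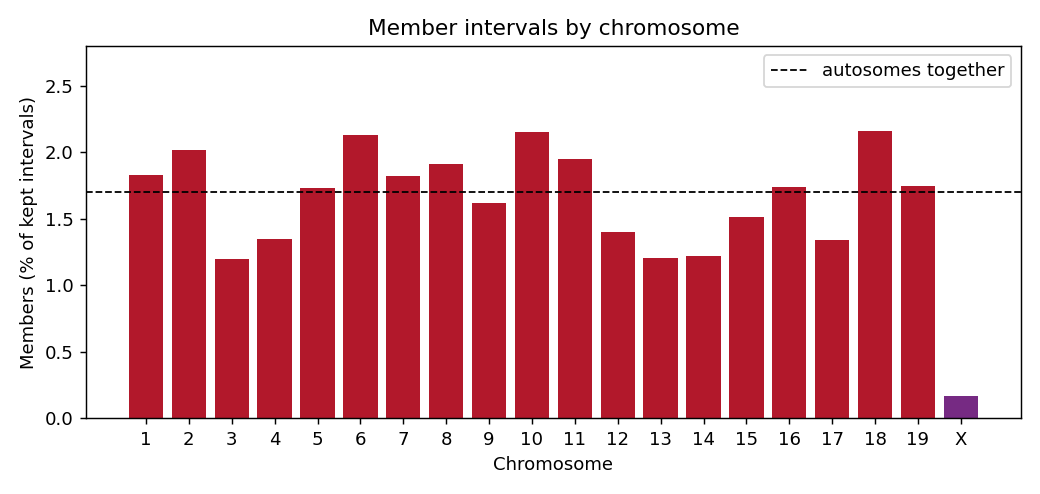
Members as a percentage of the kept intervals on each chromosome, with a dashed line for the autosomes together (1.70%). The autosomes range from 1.19% to 2.16%, and the X chromosome stands at 0.165%.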

How the data were processed

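Genomic DNA of sorted nuclei was digested with SmaI and XmaI, amplified by adaptor PCR, sheared and sequenced in pairs on an Illumina HiSeq, per the labels' protocols. Per the submitters' processing notes, Bowtie 0.12.9, FastQC 0.10.1 and cutadapt were used, with the build mm9. The authors deposited raw read counts per interval, as their whole values and differing totals show. The assignment of reads to intervals and the handling of multi-mapped reads and PCR copies are not given in the sources used here. All 20 columns were mapped by age, cell type letter (G was taken to mean glia, after the series title) and replicate number.

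The rule was applied to counts divided by each library's median over well-read intervals. On the same counts, edgeR 4.0.16 (R 4.3.3, filterByExpr, TMM, robust quasi-likelihood fit, one mean per group, all 20 libraries) tested 26679 intervals holding 99.6% of reads, with Benjamini-Hochberg adjustment over all of them. SE is the log2 fold change over the square root of F. The fit was tested on simulated data. Alternatives were RLE, total, upper-quartile and median-count scaling, other read filters, DESeq2 1.42.0, limma-voom 3.58.1, removal of each library's length trend (lowess, span 0.2), replicate blocks, fits of the 2 groups alone, a 2-fold minimum and leaving out libraries.

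Members and the rules for naming intervals were chosen with earlier results of these data known. Named were the 8 lowest non-neuronal ratios and the 5 highest and 5 lowest ratios of P0 neurons to P0 non-neurons (members at or above the median P0 non-neuron level), the 5 highest P0 levels and neighbours of the first 8. Intervals nearest the limits were named among those at or above the same level. The 3 runs of 3 were named, and of the 29 runs of 2 the one with the highest summed P0 non-neuron mean. Gene lists fixed for annotated intervals were not used, and no list result exists, since no annotation of mm9 was used here. Levels of read depth and the steps along chains were set after seeing the data. Plots used matplotlib 3.10.9.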

Additional observations from a re-analysis of the deposited data

Results flagged for a closer look

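Among 160 groups of 5 values examined (the named members and neighbours and 3 measures per library), 11 held a value far from the other 4, and chance alone flags about 1 in 20. High values were 14.4 in P0 neurons replicate 2 at chr2:127329897-127330707, 2.67 in P0 neurons replicate 3 at chr1:94872530-94873015 and 1.51 in P0 non-neurons replicate 4 at chr8:127939348-127939797. P21 neurons replicate 2, the deepest library, was low at 3 intervals, with 6.94 at chr11:118962392-118963022, 6.13 at chr4:133803856-133804583 and 5.76 at chr3:104796839-104797566. P21 neurons replicate 4 was low at chr8:113885105-113885740 (1.93) and chr18:11953255-11954050 (0.801). In P21 non-neurons, replicate 4 was low at chr7:26030206-26031602 (0.132), replicate 1 had 0 at chr7:26032252-26032360, and replicate 2 had a high median over members (0.151). The median over members was the only one of the 3 library measures with such a value.

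The age effect differed between neurons and non-neurons, by the interaction term of the edgeR fit at an adjusted p under 0.05, at 315 of the 438 tested members, which the rule favours. Over all tested intervals the neuron minus non-neuron difference rose with age at 10.9% and fell at 3.24%. Touching non-members share a site with a member and had to fail the rule on the same libraries, so the rule shaped their count too. Among them the age effect differed at 79 of the 194 tested, rising at 75 and falling at 4. The largest of the named ones was chr6:146450213-146450745, with an interaction of 4.47 on the log2 scale (edgeR adjusted p = 3.19e-07), on 0 to 6 reads per library in P21 non-neurons.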

How the results depend on the processing

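The number of members depended on the filter for low counts: without it, 949 intervals met the limits. Under the other alternatives it ran from 354 (at least 20 reads) to 577 (group medians), but the intervals changed: library totals shared 210 and the length correction 281 with the 455, and leaving out P0 replicates 4 and 5, which stood apart, shared 357. Without these, 397 members and 97 touching non-members were lower in non-neurons, against 23.3% of all tested intervals. A 2-fold minimum left 46 touching non-members lower in non-neurons and 0 members changed in neurons, which the rule's limits make certain. Leaving out one library at a time gave 427 to 513 members, 402 to 425 members lower in non-neurons, 101 to 124 changed in neurons, 295 to 322 with a called interaction and 93 to 100 touching non-members lower in non-neurons. Of all tested intervals 24.2% to 26.2% were then lower in non-neurons. Such shares were not taken for neuronal calls and interactions under the alternatives. Under the remaining alternatives these counts stayed within 1.5 times those reported, with 79 (library totals) to 109 (length correction) touching non-members. Library totals and the length correction called 16.9% and 26.6% of all tested intervals lower in non-neurons. Of the 438 tested members, 428 were lower in non-neurons by DESeq2 and 419 by limma-voom, against 27.9% and 25.7% of all tested intervals. The rule largely sets these counts too. The log2 fold change in non-neurons of the 51 named intervals kept direction and side of the threshold in all 1632 alternative values, and so did that of the 6 tested non-member neighbours given with a p.

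Same-numbered samples did not all deviate together, so the numbers were not taken as pairs: correlations ran from 0.045 to 0.210 between cell types at P0, from -0.007 to 0.322 at P21, and from -0.083 to 0.123 across ages in non-neurons and from -0.067 to 0.105 in neurons. Of 5 samples, 2, 2, 0 and 1 correlated best with their own number. With the replicate block, 424 members were lower in non-neurons, 130 changed in neurons and 320 had an interaction (333 with the block within age), and 99 touching non-members were lower. Of all tested intervals, 26.8% were lower in non-neurons with the replicate block. Depth limits the members with few reads: of 111 with a mean below 0.1 in P0 non-neurons, 94 could be tested.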

Other observations

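Members were densest, with 5 in 1 Mb, in windows starting at 73 Mb on chromosome 8 (5 of 66 kept intervals), 117 Mb on chromosome 11 (5 of 75) and 79 Mb on chromosome 10 (5 of 114). A window at 56 Mb on chromosome 9 held 4 members among 18 kept intervals, including the run of 3 described above and the seventh of the lowest ratios. These windows were picked after the data were seen, and no test was made of them. Another member lay within 100 kb of 133 of the 455.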
